A study of Canis lupus with 23 samples.

Results

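SFN, TP63, TGM1, IVL, SERPINB5, CSTA and CASP14 are 7 genes of squamous differentiation, the program by which cells of a stratified epithelium such as skin or oral mucosa mature from the basal layer to the surface. They were followed here as log2(signal + 16) in 23 canine tumors on the Affymetrix Canine Genome 2.0 array. The members are the genes whose symbol in the platform annotation is one of these 7 names, out of 15115 genes with at least 1 probeset of a single symbol. They were proposed with values of these same tumors known, so their levels are given as a description and carry no test. SERPINB5 is read by 2 probesets, which were averaged, and each of the other 6 genes by 1.

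The tumors were 3 transitional cell carcinomas of the bladder (TCC), 5 melanomas, 7 lymphomas, 2 soft tissue sarcomas (STS), 2 tumors titled only as sarcoma, and 1 each of histiocytic sarcoma, nasal tumor, hepatocellular carcinoma and hemangiosarcoma (HSA). The 2 STS and 2 sarcomas were joined as 1 type of 4 tumors, called sarcomas below. All were biopsies of spontaneous tumors of pet dogs that a pathologist had passed for tumor content, each from a different dog and read on 1 array, and no breed or age per tumor was used. By the study's methods the TCC cohort was of Scottish terriers and a cohort of lymphomas of golden retrievers, so breed and tumor type cannot be told apart for them, and the melanoma cohort was open to melanomas of the mouth. No tumor is a normal tissue, so there is no normal epithelium to set the levels against. The question addressed here is in which tumors the genes of this program were expressed, and whether they were expressed together.

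In a stratified epithelium, TP63 encodes the transcription factor p63, which maintains the basal layer, and SFN encodes 14-3-3 sigma, a binding protein of epithelial cells that restrains the cell cycle. IVL encodes involucrin, the first scaffold of the cornified envelope, which the transglutaminase encoded by TGM1 cross-links with other proteins, among them cystatin A, the protease inhibitor encoded by CSTA. CASP14 encodes caspase-14, a protease of the uppermost layers that takes part in the breakdown of filaggrin. SERPINB5 encodes maspin, a serpin of epithelial cells. p63 and 14-3-3 sigma are also made by urothelium, the lining of the bladder, and cystatin A by some white blood cells.

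MAS5, the Affymetrix summary algorithm, gives 1 linear signal per probeset, and on this scale a signal of 0 reads 4. The median over all genes and tumors was 7.03, and a gene was kept for tests if at least 3 of the 23 tumors lay above it. SFN was above that level in 10 tumors, TP63, IVL and CSTA in 4 each and CASP14 in 3, so these 5 genes passed. TGM1, above it in 1 tumor, and SERPINB5, above it in 2, did not. The tumor labels were checked against marker lists, averaged per tumor on the log2 scale. The 10 urothelial markers read 9.43 to 10.31 in TCC and 5.15 to 6.11 elsewhere, and the 12 melanocyte markers read 9.34 to 10.26 in the melanomas and 5.29 to 6.40 elsewhere. The 23 myeloid markers were highest in the histiocytic sarcoma, at 11.39 against 7.94 to 10.88. Lymphoma and the sarcomas overlapped with other tumors on their lists. The 11 lymphocyte markers read 8.90 to 11.13 in the lymphomas and 5.49 to 9.10 elsewhere. The 12 fibroblast and matrix markers read 11.25 to 12.48 in the sarcomas and 7.55 to 11.54 elsewhere. In bulk tumor RNA, fewer cells of a type and less RNA per cell cannot be told apart.

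**Figure D1:**
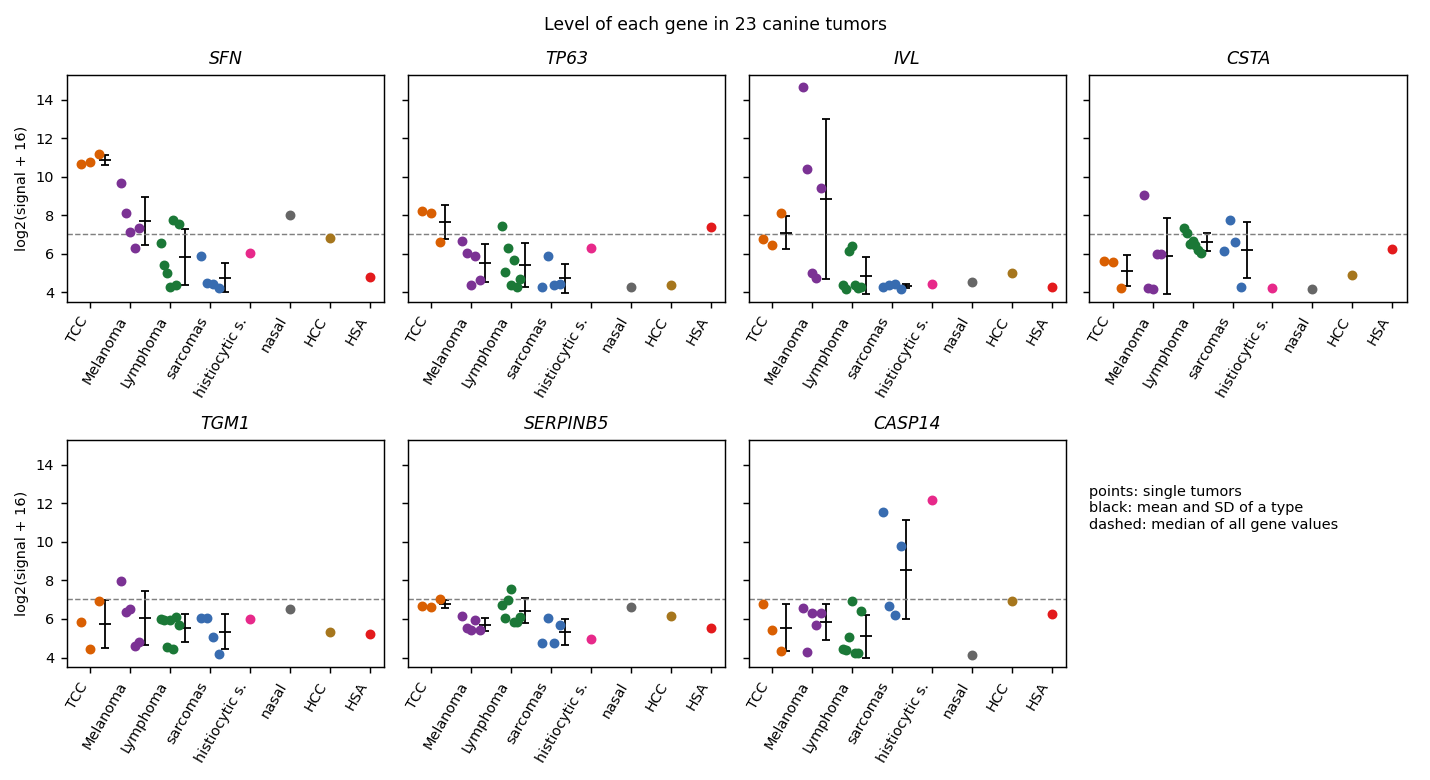
Level of each of the 7 genes, as log2(signal + 16) on the vertical axis, by tumor type on the horizontal axis. Colored points are single tumors, black bars the mean and SD of a type with more than 1 tumor, and the dashed line the median of all gene values, 7.03. SFN stands highest in the 3 TCC, IVL in Melanoma 0, 1 and 4, and CASP14 in the histiocytic sarcoma, STS 0 and Sarcoma 1.

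The 7 genes did not peak in the same tumors. SFN and TP63 were highest in TCC, IVL, CSTA and TGM1 in Melanoma 0, and CASP14 in the histiocytic sarcoma. SERPINB5, as the average of its 2 probesets, was highest in Lymphoma 3, but 1 of the 2 was highest in Melanoma 0. Over the 23 tumors, the 21 pairs of genes had a median Pearson correlation of 0.13, with a range from -0.49 to 0.53. The 2 pairs over 0.5 were SFN with IVL, at 0.53, and SFN with TP63, at 0.52. The lowest was SERPINB5 with CASP14. Without Melanoma 0 the median was 0.09. These correlations share the tumors and the tumor types, so they describe the set and carry no p. By its levels the set thus holds several separate patterns, and the genes are described below by the pattern they showed.

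SFN separated TCC from all other tumors. It read 10.66, 10.74 and 11.15 in TCC 0, 1 and 2. It read 9.64, 8.10, 7.12, 6.31 and 7.35 in Melanoma 0 to 4, and between 4.26 and 7.77 with a median of 5.43 in the 7 lymphomas. STS 0 and STS 1 read 5.88 and 4.40, and Sarcoma 0 and Sarcoma 1 read 4.50 and 4.23. All 3 TCC thus lay above all other tumors, with Melanoma 0 next, while melanomas and lymphomas overlapped. Among the single tumors, the nasal tumor read 8.01, the hepatocellular carcinoma 6.81, the histiocytic sarcoma 6.04 and the HSA 4.78. By type the order was TCC (10.85 ± 0.27, SD, n = 3), melanoma (7.70 ± 1.26, n = 5), lymphoma (5.84 ± 1.46, n = 7) and sarcomas (4.75 ± 0.76, n = 4). The first step of that order, 3.15, was larger than the SD of either type. The next steps, 1.87 and 1.09, were between types whose ranges overlap. The fitted difference of TCC from the mean of the other 3 types was 4.75 on the log2 scale, with a standard error of 0.68.

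The 5 genes whose levels followed SFN most closely over the 23 tumors, by Pearson correlation over all genes on the annotation, were FXYD3 (0.82), FAM174B (0.81), GRHL1 (0.81), GRHL2 (0.81) and S100A14 (0.81). Without TCC 1 and TCC 2, the tumors farthest from the median of SFN, these correlations were 0.72, 0.76, 0.70, 0.69 and 0.72. GRHL1 and GRHL2 encode grainyhead-like transcription factors of epithelial cells. In TCC, 13 of 13 simple epithelium markers had a higher mean than in the other tumors, and their average read 10.63 to 10.90 in TCC, 9.95 in the nasal tumor, 8.25 in the hepatocellular carcinoma and 5.38 to 6.81 in all other tumors. The part of these epithelial markers in the level of SFN was not tested.

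TP63 was also highest in TCC, at a lower level and with overlap. TCC 0, 1 and 2 read 8.21, 8.13 and 6.63. Melanoma 0 to 4 read 6.66, 6.02, 4.36, 5.89 and 4.64, and the lymphomas ran from 4.27 to 7.42 with a median of 5.07. TCC 0 and 1 lay above all other tumors, but TCC 2 lay below Lymphoma 0, at 7.42, the HSA, at 7.40, and Melanoma 0. STS 0, STS 1 and Sarcoma 1 read 4.28, 4.39 and 4.42, and Sarcoma 0 read 5.86. The histiocytic sarcoma read 6.28, the hepatocellular carcinoma 4.37 and the nasal tumor 4.29. TCC differed from the mean of the other 3 types by 2.44 (standard error 0.62). Between melanoma (5.52 ± 0.97), lymphoma (5.41 ± 1.15) and sarcomas (4.74 ± 0.75), any pair of means differed by less than the SD of its more variable type. The nasal tumor, although bright for SFN, was thus among the lowest for TP63. The 5 nearest genes were GDPD2 (0.81), VWF (0.77), EXOC1 (0.76), UPK2 (0.76) and SLC14A1 (0.74). Without TCC 0 and TCC 1, the tumors farthest from the median of TP63, these correlations were 0.70, 0.75, 0.65, 0.57 and 0.57. UPK2 encodes a uroplakin of the bladder surface, SLC14A1 a urea transporter and VWF the von Willebrand factor of endothelium. VWF read 11.07, 11.51 and 11.47 in TCC 0 to 2 and 11.74 in the HSA.

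IVL had the widest range of the set. Melanoma 0 read 14.67, Melanoma 1 read 10.41 and Melanoma 4 read 9.40, while Melanoma 2 and Melanoma 3 read 4.99 and 4.72. TCC 0, 1 and 2 read 6.74, 6.47 and 8.09. The 5 melanomas thus fell on either side of all 3 TCC, with no melanoma between 4.99 and 9.40. The lymphomas ran from 4.17 to 6.39 with a median of 4.38, and the sarcomas read 4.26, 4.44, 4.36 and 4.19. The histiocytic sarcoma read 4.45, the hepatocellular carcinoma 4.99, the nasal tumor 4.55 and the HSA 4.27. Only 4 tumors, Melanoma 0, 1 and 4 and TCC 2, exceeded the median over all genes, and the SD of IVL over the 23 tumors, 2.60, was at the 99.6 percentile of all genes. As a type mean, melanoma read 8.84 ± 4.14 (SD, n = 5) and its fitted difference of 3.41 had a standard error of 1.06, and was 1.95 without Melanoma 0. That mean describes none of the 5 tumors. TCC, at 7.10 ± 0.87, did not overlap with lymphoma, at 4.86 ± 0.97, or with the sarcomas, at 4.31 ± 0.11.

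The genes nearest to IVL were BPNT1 (0.79), SLC30A9 (0.79), DSG1 (0.78), EFCAB1 (0.78) and KRT16 (0.76). DSG1 encodes the desmosomal cadherin desmoglein 1 of upper epidermal layers, and KRT16 a keratin of stratified epithelium. DSG1 read 11.41 in Melanoma 0 and 6.64 and 6.40 in Melanoma 1 and 4, and KRT16 read 11.22, 7.06 and 6.99 there. Without Melanoma 0 and 1 the correlation with DSG1 was 0.26 and that with KRT16 0.41, while those with BPNT1 and SLC30A9, which are not genes of this epithelial program, were 0.84 and 0.67. In the RefSeq gene order, the 6 nearest protein-coding neighbours of IVL were not analysed here, since the platform annotation used does not pair them with a probeset. For the 7 genes together, 28 of 42 neighbours within 3 places on either side were measured, with correlations to their squamous neighbour from -0.48 to 0.44.

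CSTA and TGM1 were highest in Melanoma 0 as well, but their order over the other tumors was unlike that of IVL. CSTA read 9.04 in Melanoma 0 and 4.20, 4.17, 5.97 and 5.96 in Melanoma 1 to 4. The 7 lymphomas read 6.03 to 7.32 with a median of 6.52, and TCC 0, 1 and 2 read 5.60, 5.55 and 4.21. All 7 lymphomas lay above all 3 TCC and above the other 4 melanomas. STS 0, STS 1 and Sarcoma 0 read 6.14, 6.61 and 7.72, and Sarcoma 1 read 4.29. The HSA read 6.23, the hepatocellular carcinoma 4.88, the histiocytic sarcoma 4.24 and the nasal tumor 4.17. The type means, lymphoma 6.61 ± 0.46, sarcomas 6.19 ± 1.43, melanoma 5.87 ± 1.98 and TCC 5.12 ± 0.79, followed each other by less than the SD of the more variable neighbour. The genes nearest to CSTA were RPL13 (0.74) and RPS23 (0.73), which encode ribosomal proteins, then UBE2D3 (0.70), ARGLU1 (0.67) and RPL36 (0.66).

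TGM1 read 7.97, 6.36, 6.54, 4.59 and 4.83 in Melanoma 0 to 4. TCC 0, 1 and 2 read 5.85, 4.47 and 6.95, and the lymphomas 4.46 to 6.11 with a median of 5.92. Melanoma 0 was the only tumor above the median of all gene values, by less than 1 log2 unit. STS 0, STS 1, Sarcoma 0 and Sarcoma 1 read 6.07, 5.05, 6.04 and 4.17, and the nasal tumor, histiocytic sarcoma, hepatocellular carcinoma and HSA read 6.51, 6.01, 5.30 and 5.25. The type means lay between 5.33 and 6.06 and did not differ beyond their SDs. Its nearest genes were RGS9 (0.65), FAM3B (0.65), ENY2 (0.65), KRT13 (0.64), a keratin of mucosal epithelium, and WDR36 (0.64).

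SERPINB5 was above the median of all gene values in Lymphoma 3 and TCC 2 alone, and its 2 probesets did not move together. The first ran from 4.24 to 8.57, highest in Lymphoma 3, and was above 7.03 in 11 tumors. The second ran from 4.14 to 6.85, highest in Melanoma 0, and was above 7.03 in none. Their Pearson correlation over the 23 tumors was -0.01. The average of the probesets was 6.65, 6.64 and 7.05 in TCC 0 to 2, 5.82 to 7.54 with a median of 6.10 in the lymphomas, and 6.16, 5.54, 5.42, 5.96 and 5.44 in Melanoma 0 to 4. It was 4.73 and 4.74 in STS 0 and 1, 6.07 and 5.71 in Sarcoma 0 and 1, and 6.61, 6.13, 5.51 and 4.95 in the nasal tumor, hepatocellular carcinoma, HSA and histiocytic sarcoma. TCC (6.78 ± 0.23) and lymphoma (6.44 ± 0.66) differed by less than the SD of lymphoma. In the average, all 3 TCC lay above all 5 melanomas and all 4 sarcomas, but neither probeset alone gave this order. Melanoma 3 read 7.53 on the first, above TCC 0 at 7.31 and TCC 2 at 7.34. On the second, Melanoma 0 read 6.85, above all 3 TCC, and Sarcoma 1 read 6.46, above TCC 0 and 1 at 5.99 and 5.65. The nearest genes of the average, MTX1 (0.85), PTCD3 (0.80), IKBKB (0.77), TIMM50 (0.77) and KAT2A (0.77), include MTX1 and TIMM50 of mitochondrial protein import and no gene of the stratified epithelium lists. With the brighter probeset alone, the correlation with MTX1 was 0.55.

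CASP14 was high in 3 tumors, none of them an epithelial tumor or a melanoma. The histiocytic sarcoma read 12.19, STS 0 read 11.56 and Sarcoma 1 read 9.79. The other 20 tumors read 4.15 to 6.92, with Lymphoma 3 and the hepatocellular carcinoma, at 6.92 and 6.91, nearest to them. STS 1 and Sarcoma 0 read 6.22 and 6.69, so the 4 sarcomas (8.57 ± 2.55) were split between high and low. Melanoma 0 to 4 read 6.57, 4.30, 6.33, 5.70 and 6.29, TCC 0 to 2 read 6.79, 5.45 and 4.36, and the lymphomas 4.22 to 6.92 with a median of 4.46. The nasal tumor read 4.15 and the HSA 6.25. The histiocytic sarcoma was 6.14 above the mean of the other 22 tumors, whose SD was 1.83. It has no replicate. The sarcomas differed from the mean of the other 3 types by 3.07 (standard error 0.78).

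The genes nearest to CASP14 were F13A1 (0.79), ACTN3 (0.78), HSPB3 (0.78), CAPNS2 (0.77) and COLEC12 (0.77). ACTN3, HSPB3 and CAPNS2 did not pass the filter. F13A1 encodes the A chain of coagulation factor XIII, a transglutaminase, and COLEC12 a scavenger receptor. F13A1 read 11.42 in the histiocytic sarcoma, 10.09 in STS 0 and 10.58 in Sarcoma 1, and COLEC12 read 9.27, 10.06 and 8.06. HSPB3 was high in the first 2 of these tumors, at 8.41 and 10.07, and read 6.19 in Sarcoma 1. Without the histiocytic sarcoma and STS 0 the correlations were 0.67 for F13A1, 0.51 for ACTN3, 0.31 for HSPB3, 0.57 for CAPNS2 and 0.44 for COLEC12. Myeloid markers were highest in the histiocytic sarcoma, with 23 of 23 above 7.03. In the sarcomas 17 to 22 of the 23 were above it, and their average was 8.82 in STS 0, 9.76 in Sarcoma 1, 10.45 in Sarcoma 0 and 7.99 in STS 1. The HSA, with the next highest myeloid average, 10.88, read 6.25 for CASP14. The 12 fibroblast and matrix markers averaged 11.25 to 12.48 in the sarcomas and 10.22 in the histiocytic sarcoma. The part of either marker list in the level of CASP14 was not tested.

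In the comparison of each type with the mean of the other 3, a gene was called when its Benjamini-Hochberg adjusted p in limma was below 0.05 and its difference was 1 log2 unit or more. The 5 squamous genes that passed the filter were in this fit. They were proposed with these contrasts known, so no call is given for them. Of the 9972 genes tested, 6.82% were called higher in TCC. In the sarcomas 4.33% were called higher and 1.71% lower, in lymphoma 12.1% were called lower, and in melanoma 2.55% were called higher and 1.77% lower. Each comparison uses the same 19 tumors, and the mean of the other types includes TCC in the last 3.

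To see what else of the program moved with these genes, 6 lists of other stratified epithelium genes were followed, 130 genes in all. They cover the cornified envelope and barrier, stratified keratins, desmosomes, the basal layer with its hemidesmosomes, transcription factors and a kinase, and serpins, cystatins and protease inhibitors. On the annotation 90 of them had a probeset, and 49 passed the filter. The 40 not analysed here include the basal keratin genes KRT5 and KRT14, the keratinocyte genes LOR and FLG and the SPRR genes, which are among the best known markers of basal and cornified cells.

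TCC expressed a large share of these genes at a higher level than the other types. Of the 49 tested, 22 were called higher (44.9%, against 6.82% of all genes) and 1 lower (2.04%, against 4.36%), and the median log2 difference of the 49 was 1.90 against -0.08 for all genes. Simple epithelium and urothelial markers that passed the filter, 11 of 13 and 7 of 10 measured, moved more in the same comparison. All 11 and all 7 were higher, with medians of 5.19 and 5.74. The filter asks for 3 tumors and there are 3 TCC, so a marker high in TCC alone can pass through TCC. These counts and medians are thus a description, and the same limit holds for genes of the 49 that are high in TCC alone. Of the transcription factors, 7 of 10 were higher. EHF, an ETS factor of epithelial cells, was 5.12 higher in TCC (standard error 0.63, adjusted p = 1.04e-05), KLF5 4.91 (0.65, adjusted p = 2.69e-05), OVOL1 3.35 (0.51, adjusted p = 0.000131) and GRHL1 2.78 (0.42, adjusted p = 0.000117). In the basal layer list 5 of 9 were higher, among them S100A2, a target of p63, by 4.59 and FERMT1, which encodes kindlin-1, by 3.40. ITGB4 and TRIM29, both of the basal layer list, were called higher too, at 1.97 and 2.21, but these calls were lost in 16 and 19 of 29 alternative settings. Of the desmosome genes, 4 of 8 were higher: PERP by 4.01, DSG2 by 3.32, JUP by 2.67 and PKP1 by 1.97. The calls of S100A2 and PKP1 were lost when any 1 of the 3 TCC was left out.

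The late genes of the program were less uniform in TCC. Of 8 cornified envelope and barrier genes 3 were higher, namely NIPAL4, a gene of the skin barrier, by 5.82, PPL, which encodes periplakin, by 3.88, and CERS3, a ceramide synthase, by 3.69. NIPAL4 read 11.18 to 11.95 in TCC and at most 7.37 in the other types. Of the serpins and inhibitors SERPINB7 was 6.30 higher, TMPRSS11D, a serine protease, 5.12 and CST6, which encodes cystatin M/E, 4.52, while PI3, the elastase inhibitor elafin, was lower, with a difference of -3.44. The call of PI3 was lost in 14 of 29 alternative settings. None of the 5 stratified keratin genes that passed the filter was called, and their median difference was 0.25. TMPRSS11D spread widely within TCC, at 11.46, 8.19 and 13.12, Melanoma 0 lay within that range at 12.53, and its call was lost without TCC 2. In TCC 0, 1 and 2, 40% to 41.1% of the 90 genes were above 7.03, below the 46.9% to 50.2% of all genes above it in these tumors.

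**Figure D2:**
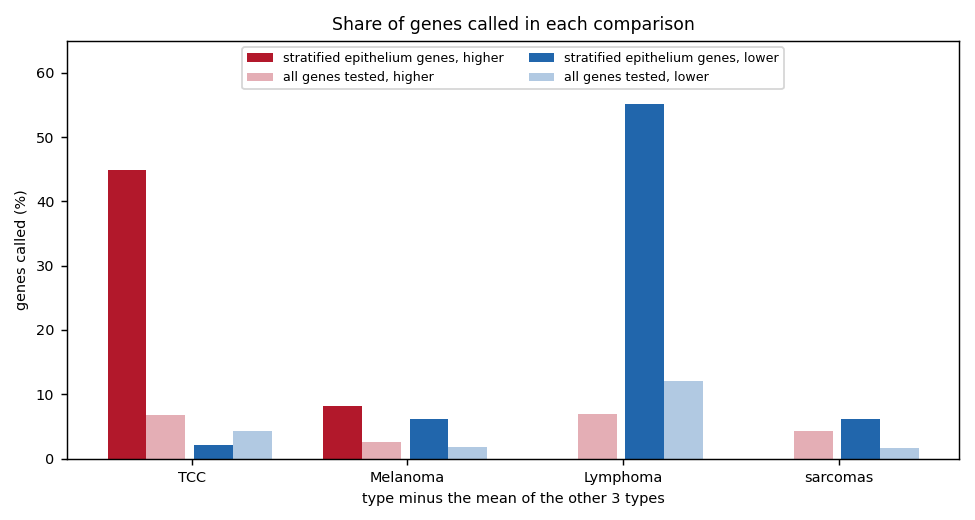
Percent of genes called higher (red) and lower (blue) in each type against the mean of the other 3 types, for the 49 stratified epithelium genes tested (dark bars) and all 9972 genes tested (pale bars). In TCC 44.9% of the stratified epithelium genes were higher and in lymphoma 55.1% were lower.

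As a type, melanoma had few called genes of the program. Of the 49, 4 were higher (8.16%, against 2.55% of all genes) and 3 were lower (6.12%, against 1.77%). The median difference was 0.40 against -0.05. GJB2, the gap junction gene of connexin 26, was 4.60 higher (standard error 0.73, adjusted p = 0.000665), TFAP2A, a transcription factor of keratinocytes and of the neural crest lineage, 4.64 (0.90, adjusted p = 0.00334), LAMA3 1.61 (0.44, adjusted p = 0.0356) and DST 1.23 (0.28, adjusted p = 0.0119). GJB2 read 14.55, 9.88, 8.02, 12.50 and 8.85 in Melanoma 0 to 4, and TFAP2A 12.73, 10.78, 12.26, 13.15 and 9.92. Each melanoma lay above all tumors of the other 3 types for GJB2, and the low IVL tumors, Melanoma 2 and 3, were among the highest for TFAP2A. The call of LAMA3 was lost in 10 of 29 alternative settings. DSG2, NIPAL4 and SERPINB7 were lower, with differences of -2.28, -2.76 and -2.53, in a comparison whose other side includes their high TCC levels.

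The melanomas differed far more among themselves. The listed genes given for single melanomas here and below were named after their values were seen. They are those with the largest difference of a melanoma from the mean of the other 22 tumors, or further genes of the same lists. In Melanoma 0, 21 of the 90 genes (23.3%) had their highest value of the 23 tumors, against 3.02% of all genes. The share of the 90 above 7.03 was 46.7% there, close to the 47.3% of all genes. These included KRTDAP, a secreted protein of differentiating keratinocytes, at 14.24 against a mean of 5.50 ± 1.31 (SD, n = 22) in the other tumors. SBSN, which encodes suprabasin, read 12.17 against 6.02 ± 1.64, and S100A2 read 14.01. Desmosomal genes were among them, with DSC2 at 13.47, DSP at 12.31, DSG1 at 11.41 and DSG3 at 10.86, and so were the keratin genes KRT13, at 11.77, and KRT16, at 11.22. SPINK5, the epidermal protease inhibitor LEKTI, read 14.15 in Melanoma 0 and 14.28 in the nasal tumor. Of the 25 cornified envelope and barrier genes on the array, 8 were highest in Melanoma 0, as were IVL, CSTA and TGM1, and the other 17 were highest elsewhere, CERS3 and NIPAL4 in TCC among them.

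That tumor kept the marks of a melanoma. Its 12 melanocyte markers averaged 9.86, with 10 of 12 above 7.03, as in the other melanomas. Its simple epithelium markers averaged 6.69, with 6 of 13 above 7.03, the highest average of the melanomas but below the 10.63 to 10.90 in TCC. Its urothelial markers averaged 5.36, with 0 of 10. Airway and glandular markers averaged 5.29, with 0 of 8 above 7.03. Hair follicle markers averaged 5.84, with 1 of 8, the highest average of any tumor after Lymphoma 0. The 3' to 5' signal ratio of the GAPDH control probesets was 4.14 in Melanoma 0. That is near the upper end of the range of 2.42 to 4.41 over all arrays, and only Lymphoma 6 was higher. No label gives the tissue that surrounded the tumor cells of any biopsy, so no melanoma was grouped by its epithelium here, and the part of such tissue in these levels was not tested.

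Melanoma 1 and Melanoma 4 shared some of these genes with Melanoma 0. S100A2 read 12.64 and 12.17 in them, against 6.75 and 4.52 in Melanoma 2 and 3. KRT13 read 10.58 and 8.03 and SPINK5 9.90 and 6.97 in Melanoma 1 and 4. DSG3 read 7.08 and 7.25 in them, against 4.20 and 4.06 in Melanoma 2 and 3. The 3 melanomas with high IVL were also the 3 with the higher S100A2, DSG3, SPINK5 and KRT13 levels. This follows in part from the choice of these genes by their values in single melanomas. KRTDAP did not follow, at 6.29 and 4.12 in Melanoma 1 and 4. In Melanoma 4, SERPINB2 read 12.98, against at most 8.88 elsewhere, and SLPI and PI3 read 12.79 and 11.43, lower than in the nasal tumor. TCHH, which encodes trichohyalin, was highest in Melanoma 1, at 9.03. Desmosome genes averaged 8.76 in Melanoma 0, 6.41 and 6.60 in Melanoma 1 and 4, and 5.69 and 5.88 in Melanoma 2 and 3. Basal layer genes averaged 7.48 and 7.33 in Melanoma 1 and 4 and 6.67 and 7.07 in Melanoma 2 and 3. Serpins and inhibitors averaged 6.98 and 8.58 against 6.72 and 6.79. The other lists did not split this way. Stratified keratins averaged 6.02 in Melanoma 4, below Melanoma 2 and 3, at 6.13 and 6.03. Cornified envelope genes averaged 5.41 in both Melanoma 2 and 4. Transcription factors averaged 6.80 in Melanoma 2, above Melanoma 1 and 4, at 6.51 and 6.34. Of the 90 listed genes 31.1% were above 7.03 in each of Melanoma 1 and 4, against 47.3% and 49.2% of all genes, and 17.8% and 18.9% in Melanoma 2 and 3, against 49.7% and 54.7%.

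**Figure D3:**
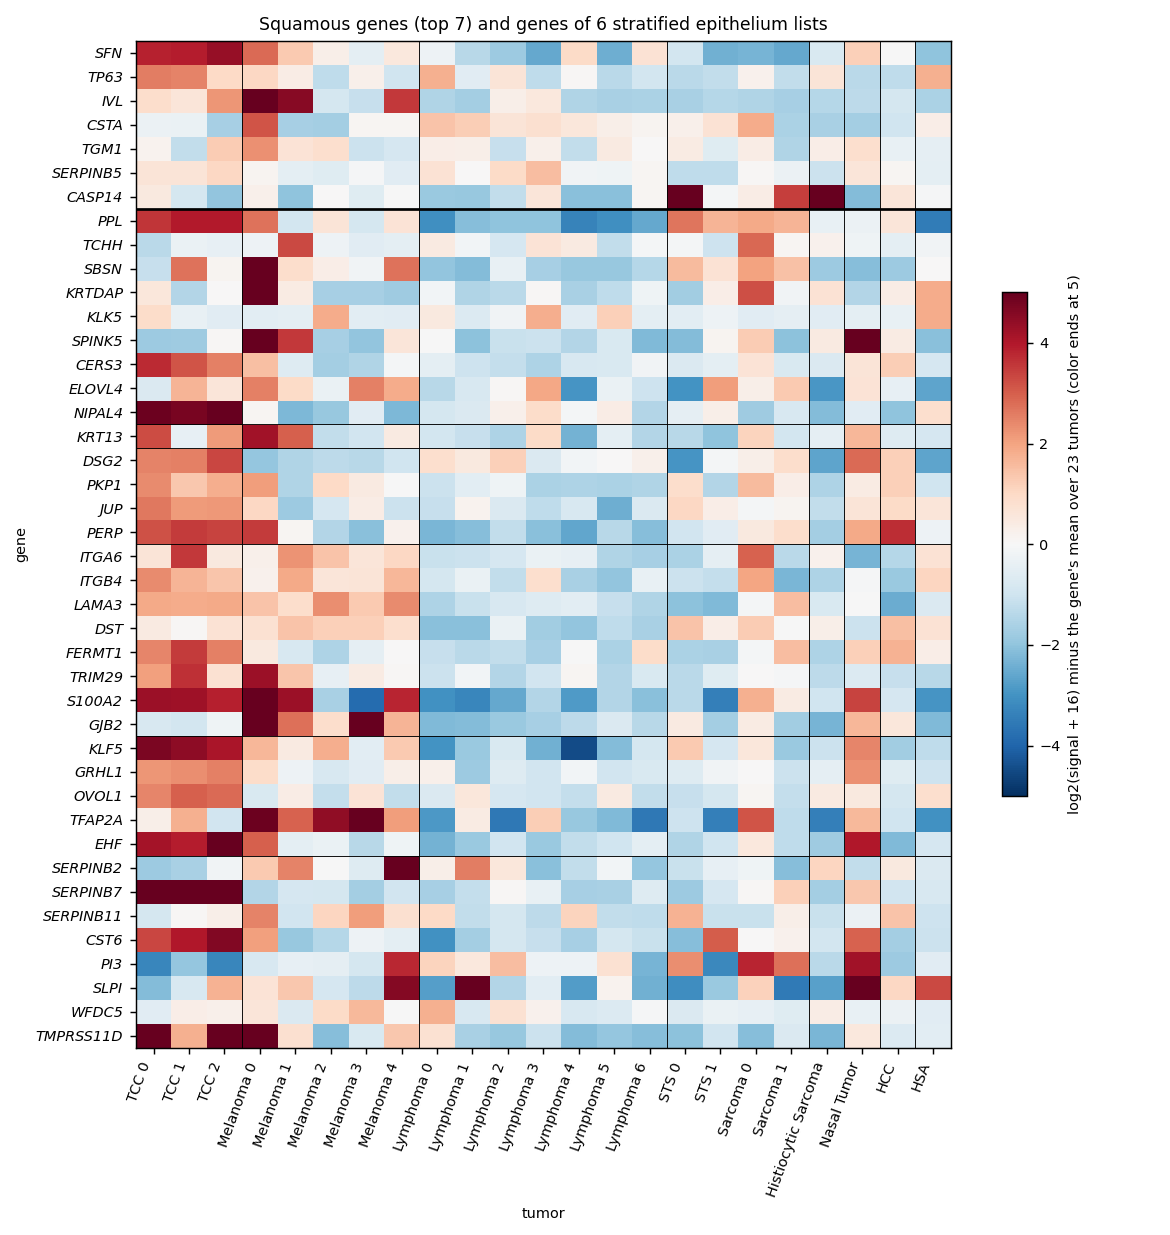
Each row is a gene and each column a tumor, grouped by type, with color for log2(signal + 16) minus the gene's mean over the 23 tumors. The top 7 rows are the squamous genes, and the rows below are genes of 6 stratified epithelium lists, those called in TCC or melanoma and those with the largest difference in a melanoma. Melanoma 0 is red over most of the lists as shown, which follows in part from that choice of rows. Of all 90 listed genes, 21 were highest in it. The histiocytic sarcoma is deep red for CASP14 alone among the top rows.

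Lymphoma stood at the other end. Of the 49 genes 27 were called lower (55.1%, against 12.1% of all genes) and 0 higher, and the median difference was -1.52 against 0.07. PPL differed by -4.68 (standard error 0.39, adjusted p = 1.04e-07), S100A2 by -4.09, KLF5 by -3.94 and PERP by -3.11 on the log2 scale. Each of these genes was also called higher in TCC, which is part of the other side of this comparison. The filter asks for 3 tumors of any type, so a gene low in all lymphomas can pass through the other tumors. The counts for lymphoma are thus a description. In the 7 lymphomas 12.2% to 20% of the 90 genes were above 7.03, against 47.2% to 51.3% of all genes. Lists of other cell types were lower in the same comparison too, with 10 of 12 fibroblast and matrix, 7 of 11 melanocyte and 8 of 11 simple epithelium markers called lower, and the 27 became 10 with all 23 tumors as 2 groups. CSTA, at its most even level in lymphoma, and SERPINB5 were the 2 squamous genes whose lymphoma mean was above the mean of the other types, by 0.88 (standard error 0.57) and 0.50 (0.29). The first was 1.64 with a pseudocount of 1 and 0.39 with 64, and the second 1.24 with the brighter SERPINB5 probeset alone and 0.32 to 0.61 with single tumors left out.

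The sarcomas had 0 of the 49 genes higher, against 4.33% of all genes, and 3 lower (6.12%, against 1.71% of all genes), EHF (-1.86), NIPAL4 (-1.82) and SERPINB7 (-1.45), with a median difference of -0.65 against -0.04 for all genes. These 3 genes were at their highest in TCC, which is part of the other side of the comparison, and their calls in the sarcomas were lost in 21, 6 and 20 of 29 alternative settings. In Sarcoma 0, which had the highest CSTA after Melanoma 0, 38.9% of the 90 listed genes were above 7.03, against 54.7% of all genes. In the sarcomas with high CASP14, STS 0 and Sarcoma 1, it was 20% and 25.6%, against 48.7% and 50.4%. PPL read 10.40 in STS 0 and 9.42 in Sarcoma 1, and PI3 read 9.97 and 10.40. DSP read 10.69 in Sarcoma 1 and 4.29 in STS 0, so these tumors shared some high listed genes and not others.

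The histiocytic sarcoma held the highest CASP14. Of the 90 listed genes 16.7% were above 7.03 there, against 51.0% of all genes, and 1 (1.11%, against 3.74% of all genes) had its highest value of the 23 tumors there, SERPINB13, at 6.13. The listed genes with the largest difference from the mean of the other 22 tumors were SDR9C7, SERPINB8, SERPINB13, KLK8 and CSTB, and these differences were 1.12 to 1.55, against 6.14 for CASP14. Cornified envelope genes averaged 5.12 there, against 4.79 to 5.72 in the lymphomas, and simple epithelium markers 5.38, with 0 of 13 above 7.03. IVL, TGM1 and CSTA read 4.45, 6.01 and 4.24 in it.

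The remaining single tumors had listed genes of their own. The nasal tumor had 9 of the 90 (10%, against 4.24% of all genes) at their highest, among them SPINK5, SLPI, the secretory protease inhibitor, at 15.09, PKP2 at 12.02, PI3 at 11.84 and CLCA2 at 11.11, beside SFN at 8.01 and IVL at 4.55. In the hepatocellular carcinoma the largest differences were in PERP, PKP2, DSP, DSC2 and FERMT1, mostly desmosomal genes, and in the HSA in SLPI, KRTDAP, KLK5, SDR9C7 and ASPRV1. The HSA read 7.40 for TP63. These tumors have no replicate and no test.

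The mean of the 90 listed genes per tumor summarises the companions of the 7 genes. It was highest in Melanoma 0, at 7.75, then in the 3 TCC, at 6.98 to 7.25, and in the nasal tumor, at 6.84, and lowest in Lymphoma 1, at 5.48. Over the 23 tumors its Pearson correlation was 0.71 with IVL, 0.69 with SFN, 0.41 with TGM1, 0.38 with TP63, 0.29 with SERPINB5, 0.01 with CSTA and -0.15 with CASP14. Without Melanoma 0 it was 0.55 with IVL, 0.67 with SFN, 0.17 with TGM1 and -0.39 with CSTA. SFN and IVL thus had the highest correlations with the other stratified epithelium genes over these tumors, and CSTA and CASP14 were near 0 or below. The tumors share their types, so these correlations are a description with no p.

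**Figure D4:**
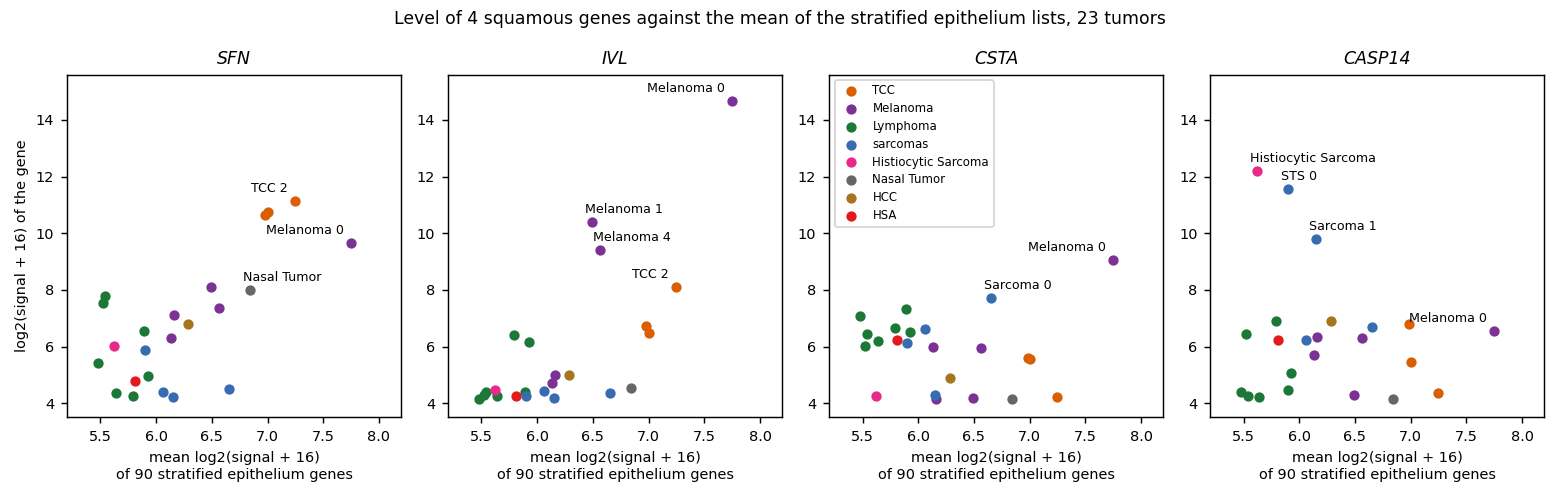
Level of SFN, IVL, CSTA and CASP14 on the vertical axis against the mean level of the 90 listed stratified epithelium genes on the horizontal axis, both as log2(signal + 16), 1 point per tumor colored by type. Melanoma 0 stands at the right end in all 4 panels, high for SFN, IVL and CSTA, and the 3 tumors with high CASP14 lie in the left part, with listed means of 5.62, 5.90 and 6.15.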

How the data were processed

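Total RNA of 23 canine tumors was amplified with the NuGEN Ovation Pico WTA system and read on the Affymetrix Canine Genome 2.0 array. The deposited intensity values are linear MAS5 signals, 1 per probeset, that the authors scaled per array. All arrays shared a trimmed mean of 500.1 (2% trimmed from each end), and 19.8% to 27.2% of probesets had a signal under 16. Their software version was not stated.

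The platform annotation gives 1 symbol to 29254 of the 42924 noncontrol probesets, several to 439, which were not used, and none to 13231. The log2(signal + 16) values were averaged per gene, and 9972 of 15115 genes passed the filter. A single limma model (version 3.58.1, R 4.3.3, variance trend) over 19 tumors set TCC, melanoma, lymphoma and sarcomas each against the equally weighted mean of the other 3, with two-sided tests and Benjamini-Hochberg adjustment over the 9972 genes. The 4 single tumors were not in the fit. The steps were tested on simulated data.

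The members and lists were chosen with earlier results of these data known. Named were all members, called genes with the largest differences in each list (up to 4 in TCC and melanoma, up to 2 in lymphoma and the sarcomas), the 5 genes with the highest Pearson correlation with each member, and the 5 listed genes with the largest difference in each single tumor. Alternatives were pseudocounts of 1 or 64, quantiles matched between arrays, omission of the filter, 1 probeset per gene (that of highest mean), no trend in the variance, blocking on the number in the title, 2 groups made of all 23 tumors, calls on adjusted p only, STS and sarcoma as separate types, Spearman correlation, and leaving out each tumor. Gene order came from RefSeq (mCanLup2), without coordinates.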

Additional observations from a re-analysis of the deposited data

Results flagged for a closer look

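Of 21 gene and type combinations with 4 to 7 tumors, 2 held a tumor far from the others of its type by Dixon's test, of which chance gives about 1 in 20. SFN in STS 0, at 5.88, stood above the next sarcoma, at 4.50, by 0.841 of the range of the 4 sarcomas. TP63 in Sarcoma 0, at 5.86, stood above the next, at 4.42, by 0.911 of the range. The critical value for 4 tumors is 0.829. In each case the level was below the median of all gene values, 7.03.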

How the results depend on the processing

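The array number limits the precision, and 19.8% to 27.2% of probesets lay below the pseudocount of 16, so differences of dim genes shrink with it. The 22 stratified epithelium genes higher in TCC and the 0 higher in lymphoma stayed within 1.5 times in all other settings. The 1 gene lower in TCC became 0 with a pseudocount of 64, quantile normalization, no filter, the replicate block or all 23 tumors as 2 groups, and 2 with the probeset of the highest mean. The 4 higher and 3 lower in melanoma became 2 and 0, and the 27 lower in lymphoma 10, with all 23 tumors as 2 groups. In the sarcomas, 0 higher became 1 with the probeset of the highest mean, and 3 lower became 0 with a pseudocount of 1, the replicate block or all 23 tumors as 2 groups, 1 with no filter and 5 with quantile normalization. The cause of these shifts was not tested. Leaving out each tumor in turn gave 16 to 23 higher and 0 to 1 lower in TCC, 3 to 5 higher and 3 to 5 lower in melanoma, 0 to 0 higher and 25 to 30 lower in lymphoma, and 0 to 1 higher and 0 to 3 lower in the sarcomas. The numbers in the tumor titles name different dogs and do not pair them: tumors of the same number and different type correlated at 0.01 on average, from -0.12 to 0.09. With the block, 18 genes were higher in TCC and 20 lower in lymphoma. Without STS 0 no gene was lower in the sarcomas, without STS 1, Sarcoma 1 or Melanoma 0 1 was higher there, and without Melanoma 0 5 were lower in melanoma. The differences of SFN and TP63 in TCC, IVL in melanoma, CASP14 in the sarcomas and CSTA and SERPINB5 in lymphoma kept their sign in all settings. Of all 28 differences of the squamous genes, 5 turned sign in at least 1 setting, all of them of TGM1, CSTA or TP63 and at most 0.56 in size. SFN in TCC gave 5.59 with a pseudocount of 1 and 3.82 with 64, TP63 3.44 and 1.51. IVL in the sarcomas gave -2.13 without Melanoma 0. Quantile normalization moved the median of all genes in the sarcomas to -0.10. The correlations without Melanoma 0 were added after the data were seen.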
